A study of Ambystoma mexicanum with 6 samples.

Results

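Syndecans are transmembrane proteoglycans whose extracellular part carries heparan sulfate chains, and in some members chondroitin sulfate chains. The chains bind growth factors, midkine and fibroblast growth factors among them, and matrix proteins such as fibronectin, while the short cytoplasmic tail binds scaffold and cytoskeletal proteins. Metalloproteinases can cut the extracellular part from the cell surface. In mammals sdc1 is known mainly from epithelia, sdc2 from mesenchymal cells, sdc3 from neural and musculoskeletal tissue, and sdc4 from focal adhesions of many cell types.

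The family was followed here in amputated limbs of the axolotl (*Ambystoma mexicanum*) treated with iMDK, a small molecule used to inhibit midkine, or with its solvent DMSO. Its members were all 7 transcripts of 4 assembled genes in a matrix of 1554055 transcripts, namely c1055997_g1 (sdc1), c1071119_g1 (sdc2), c1078104_g3 (sdc3) and c1069904_g3 (sdc4). There were 3 iMDK libraries and 3 DMSO libraries, each of poly(A) RNA from a forelimb cut through the lower arm and taken at 11 days post-amputation (dpa). According to the labels, treatment started directly after amputation and went on until collection, and according to the methods the animals were juvenile white axolotls kept in the drug or solvent solution. No allele or other agent was given for either group. Both groups were amputated, and an uncut limb was not analysed here. The paper reports that limbs under iMDK failed to regenerate and later had a thinner wound epidermis than DMSO limbs. The drug reached the whole animal, its direct target is not known, and each library mixes wound epidermis, blastema and stump, so that fewer cells of a type and less RNA per cell cannot be told apart.

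Values were TPM (the share of a transcript in its library, corrected for its length) multiplied by a TMM scaling factor per library. The libraries summed to 910461 to 1103877 and held 126965 to 198094 transcripts above 0. Log2 values correlated at 0.773 to 0.806 within a treatment and at 0.733 to 0.770 between treatments. Since TPM does not keep read totals, depth is unknown and values have no counting interval. The spread behind each limma p-value is that between limbs of the same treatment, drawn toward a trend over all genes or transcripts tested. According to the methods the 6 limbs came from different animals.

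No syndecan passed the test between treatments. Sdc4 stood higher in every iMDK limb than in any DMSO limb, and so did sdc1 in the values as deposited, but not with the TMM scaling undone. On the sum of its transcripts, sdc4 averaged 13.3 ± 5.57 TPM in iMDK limbs and 4.35 ± 0.971 TPM in DMSO limbs (SD, n = 3 per group), and sdc1 averaged 104.9 ± 10.5 TPM in iMDK limbs and 76.2 ± 10.7 TPM in DMSO limbs. The ranges of sdc2 and sdc3 overlapped between treatments. The study called transcripts with DESeq2 at an adjusted p under 0.05 and a fold above 2. With the same thresholds on limma here, 0 of the 4 syndecan genes were called, against 24 of 44342 genes tested (0.0541%). At an unadjusted limma p under 0.05, sdc1 and sdc4 passed, 2 of 4 genes, where 10.7% of all genes did. Sdc1 missed that threshold, leaving sdc4 alone, with the TMM scaling undone (limma unadjusted p = 0.0837), with quantile normalization or with no variance trend, and without iMDK 3, DMSO 1 or DMSO 3. Sdc4 missed that threshold when the other assembled genes of its assembly component were added to it (limma unadjusted p = 0.482, adjusted p = 0.855). Its groups then overlapped. As deposited, the groups did not overlap for the same 2 of 4 genes, both higher in iMDK, and for 16.6% of all genes (8.38% higher in iMDK). A family of 4 genes is too small to read these shares as a property of the family.

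**Figure D1:**
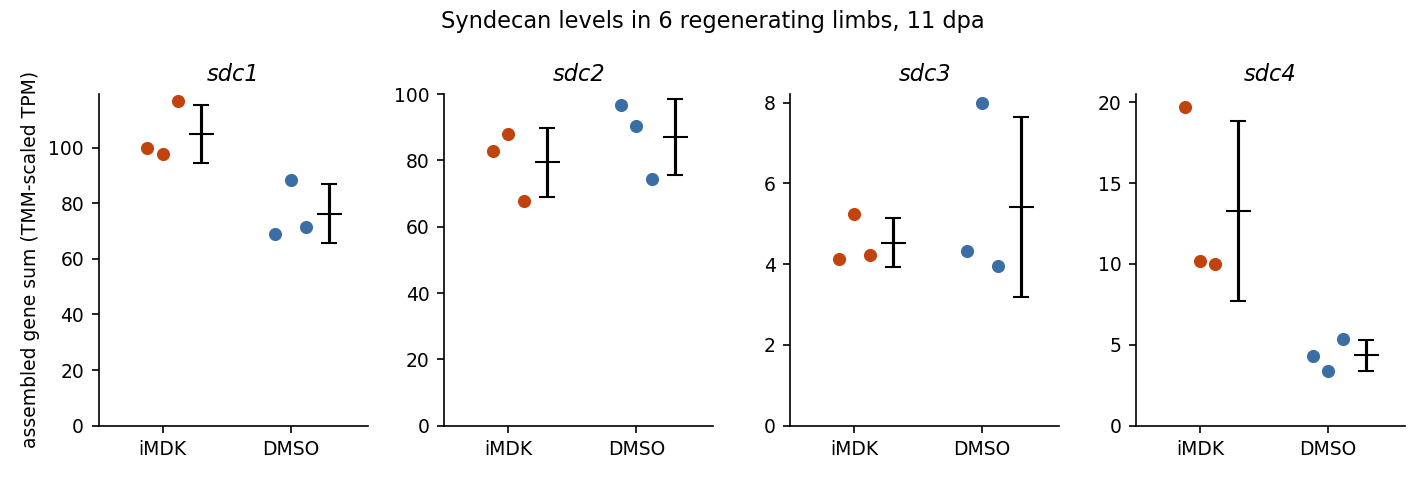
Sum of the transcripts of sdc1, sdc2, sdc3 and sdc4 in each limb at 11 dpa, in TMM-scaled TPM on linear axes of their own that start at 0; points are limbs, and the bar beside each group is the mean ± SD (n = 3). For sdc1 and sdc4 the lowest iMDK limb (97.7 and 9.97 TPM) lies above the highest DMSO limb (88.5 and 5.35 TPM). This is lost for sdc1 with the TMM scaling undone, and for sdc4 with the sum over its whole assembly component. For sdc2 and sdc3 the limbs of both treatments overlap.

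Sdc1, the syndecan best known from epithelia, was measured by a single transcript. It was at 99.96, 97.7 and 116.9 TPM in iMDK limbs 1 to 3, against 68.9, 88.5 and 71.4 TPM in DMSO limbs 1 to 3. The gap between the groups was narrow, and it closed when the TMM scaling was undone by bringing each library to the same sum. Sdc1 was then at 90.5, 98.8 and 116.2 TPM in iMDK limbs, against 67.8, 97.2 and 72.5 TPM in DMSO limbs, with DMSO 2 above iMDK 1 and a log2 difference of 0.37 (limma adjusted p = 0.507). With median-of-ratios scaling the groups stayed apart, at 97.4 to 114.6 TPM in iMDK limbs and 68.9 to 83.0 TPM in DMSO limbs. As deposited, the log2 difference was 0.46 ± 0.16 (SE, 95% interval 0.08 to 0.85), with an unadjusted limma p of 0.0257 and an adjusted p of 0.371. Sdc1 was an abundant and even gene, above 96.9% of all genes tested in mean level, and with a spread within groups (0.17 on the log2 scale) below the median of all genes (0.59).

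Sdc4, known in mammals from focal adhesions of many cell types, was also measured by a single transcript. Its values were 19.7, 10.2 and 9.97 TPM in iMDK limbs, against 4.30, 3.41 and 5.35 TPM in DMSO limbs. The groups did not overlap, and iMDK 1 stood apart from the other iMDK limbs, well above them. The log2 difference was 1.46 ± 0.32 (SE, 95% interval 0.69 to 2.22), the largest of the family and above that of 95.9% of all genes tested. It did not pass (limma unadjusted p = 0.00298, adjusted p = 0.188 over genes and 0.146 over transcripts). When each limb was left out in turn the log2 difference ran between 1.14 and 1.62.

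The sdc4 value depended on what the assembly counts as the gene. The assembly component that holds sdc4 (c1069904) has other assembled genes without a name here, and 1 of them, c1069904_g2, went the other way. It was at 1.45, 0.553 and 1.56 TPM in iMDK limbs, against 8.98, 4.62 and 9.68 TPM in DMSO limbs. All iMDK limbs were lower, and the difference of -2.29 ± 0.42 on the log2 scale (SE) did not pass either (limma adjusted p = 0.171). Summed over the whole component, sdc4 was at 22.02, 10.9 and 12.4 TPM in iMDK limbs, against 13.7, 8.22 and 15.2 TPM in DMSO limbs. The component sums overlapped between treatments and differed by 0.25 on the log2 scale (95% interval -0.55 to 1.06, limma adjusted p = 0.855). Whether c1069904_g2 belongs to sdc4 or to another gene was not tested, and the component sum was added after the values were seen. For sdc1 the component sum was the gene sum itself in every limb, so its log2 difference of 0.46 is no separate check. For sdc2 the component sum gave the same log2 difference to 2 decimals (-0.13). For sdc3 the component sum was at 6.76, 6.34 and 5.51 TPM in iMDK limbs, against 6.92, 10.02 and 8.14 TPM in DMSO limbs. All iMDK limbs were then the lower ones, with a log2 difference of -0.39 that did not pass (limma adjusted p = 0.695).

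**Figure D2:**
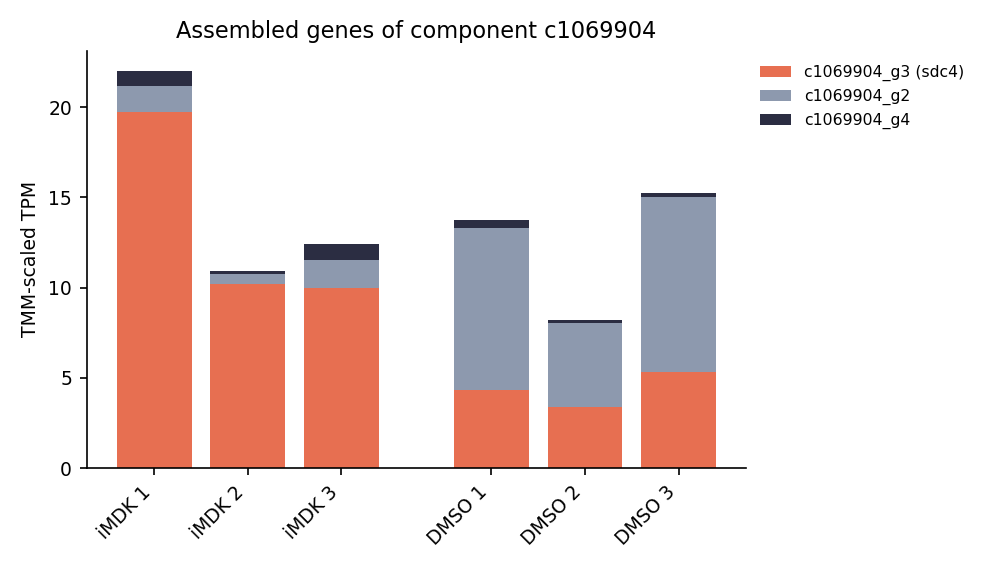
Stacked TMM-scaled TPM of the assembled genes of component c1069904 in each limb, with the named sdc4 gene (c1069904_g3) at the base, c1069904_g2 above it and c1069904_g4 on top. The sdc4 part is taller in all iMDK limbs (9.97 to 19.7 TPM) than in the DMSO limbs (3.41 to 5.35 TPM) and the c1069904_g2 part shorter (0.553 to 1.56 against 4.62 to 9.68 TPM), so that the whole bars overlap between treatments.

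Sdc2, known in mammals mainly from mesenchymal cells, was close to sdc1 in level, and its sum overlapped between treatments. The sums were 82.7, 87.9 and 67.7 TPM in iMDK limbs, against 96.6, 90.3 and 74.2 TPM in DMSO limbs. The lowest limb of each treatment was its limb 3. The log2 difference was -0.13 (95% interval -0.54 to 0.28, limma adjusted p = 0.842), an interval that leaves room for changes in both directions.

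Below this even level, nearly all of sdc2 was assigned to 1 of its 2 transcripts in each limb, and not to the same one. The transcript i1 was at 82.7, 87.6 and 67.7 TPM in iMDK limbs, against 0.275, 0 and 74.2 TPM in DMSO limbs. The transcript i2 was at 0, 0.265 and 0 TPM in iMDK limbs, against 96.4, 90.3 and 0 TPM in DMSO limbs. All 3 iMDK limbs and DMSO 3 thus used i1, and DMSO 1 and DMSO 2 used i2. The share of i1 in sdc2 averaged 99.9% in iMDK limbs and 33.4 ± 57.7% in DMSO limbs (SD, n = 3 per group, exact permutation p = 0.4, 2-sided, smallest possible 0.1). An entry of 0 may also come from how kallisto divides reads between near-identical transcripts. In the fit over transcripts i1 had a log2 difference of 4.69 (95% interval 0.38 to 9.01, limma adjusted p = 0.396), while i2 was not tested because it reached 1 TPM in only 2 limbs.

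DMSO 3 decided that value. Without it, i1 had a log2 difference of 6.99 and passed the test (limma adjusted p = 0.0059), the only syndecan transcript called under any alternative tried. DMSO 3 was the only DMSO limb with i1 above 0.275 TPM, so this pass follows from leaving that limb out and is no support for a difference. In that setting 120 of all transcripts were called. A change of transcript between limbs of 1 treatment was not particular to sdc2. Of 12851 genes with several transcripts and at least 1 TPM in all 6 limbs, 516 (4.02%) had a transcript that made up at least 90% of the gene in 1 iMDK limb and at most 1% in another iMDK limb. Among the DMSO limbs 471 genes (3.67%) did so, sdc2 included. These genes were not matched in level to sdc2, which was above 96.7% of all genes tested. Over the transcripts, 0 of the 5 syndecan transcripts tested were called, against 280 of 51718 (0.541%). At an unadjusted limma p under 0.05, 4 of the 5 passed (sdc1, sdc2 i1, sdc3 i3 and sdc4), against 11.2% of all transcripts. All 4 were higher in iMDK, but the filter had left out sdc2 i2 and sdc3 i1, which reached 1 TPM only in DMSO limbs. So few transcripts, chosen in part by that filter, cannot be read as a property of the family. Among the alternatives the number at that threshold ranged between 1 (without iMDK 1, iMDK 2 or iMDK 3) and 6 of 7 (with no filter). The setting with no filter also tests sdc2 i2 and sdc3 i1, which are at or near 0 in several limbs. The share of all transcripts under these alternatives is not given here, so the counts have no background beside them.

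**Figure D3:**
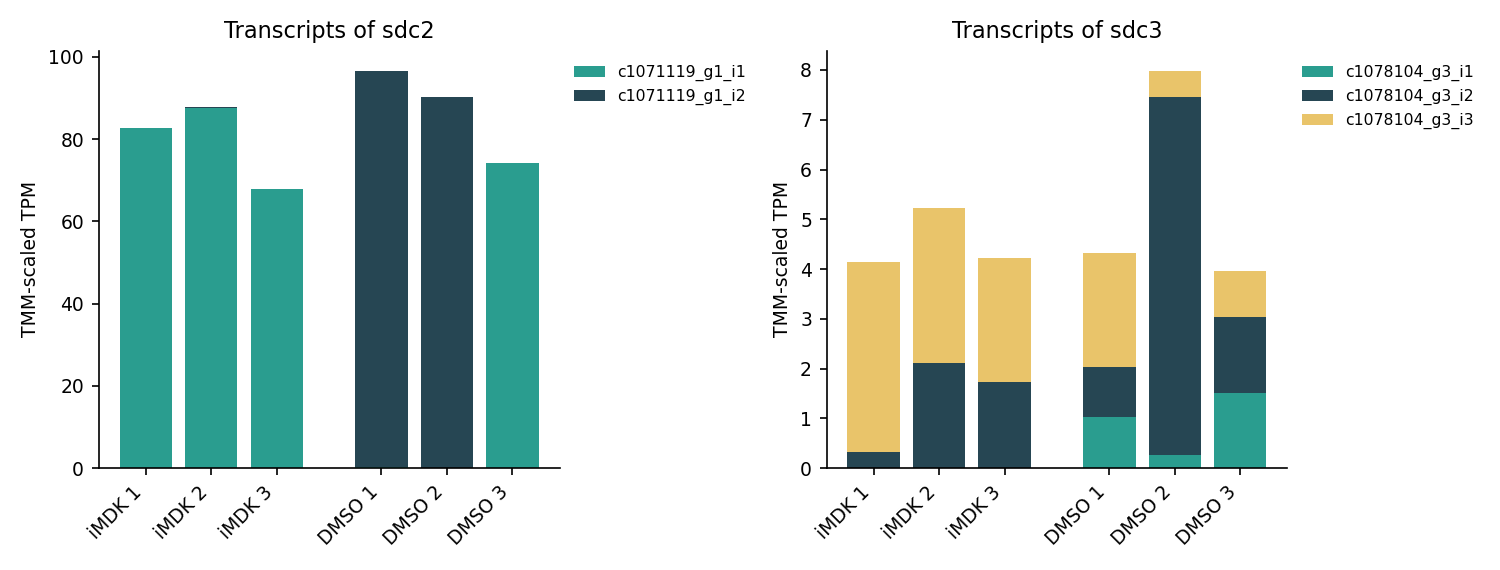
Stacked TMM-scaled TPM of the transcripts of sdc2 (left) and sdc3 (right) in each limb, with the treatments side by side and axes that start at 0. For sdc2 the bars are nearly all of 1 colour each, i1 in the 3 iMDK limbs and DMSO 3 and i2 in DMSO 1 and DMSO 2, and for sdc3 the i3 part is larger in each iMDK limb (2.50 to 3.82 TPM) than in any DMSO limb (0.539 to 2.28 TPM).

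Sdc3, known mainly from neural and musculoskeletal tissue, was the lowest syndecan in every iMDK limb. Its sums were 4.14, 5.23 and 4.23 TPM in iMDK limbs, against 4.32, 7.99 and 3.96 TPM in DMSO limbs. The groups overlapped, and DMSO 2 stood above the other 5 limbs. The log2 difference was -0.18 (95% interval -0.92 to 0.56, limma adjusted p = 0.866), and it turned to 0.11 without DMSO 2 (limma adjusted p = 0.930).

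The transcripts of sdc3 divided this level differently. The transcript i3 was at 3.82, 3.12 and 2.50 TPM in iMDK limbs, against 2.28, 0.539 and 0.925 TPM in DMSO limbs. It was higher in every iMDK limb, but its log2 difference of 1.17 (95% interval 0.07 to 2.27) did not pass (limma unadjusted p = 0.0404, adjusted p = 0.410). Its share of sdc3 was 92.2, 59.7 and 59.2% in iMDK limbs, against 52.9, 6.75 and 23.4% in DMSO limbs (exact permutation p = 0.1, the smallest that 3 against 3 limbs allow). The transcript i1 was at 0, 0.001 and 0 TPM in iMDK limbs, against 1.02, 0.267 and 1.52 TPM in DMSO limbs, and was too low to be tested. The transcript i2 was at 0.322, 2.11 and 1.73 TPM in iMDK limbs, against 1.02, 7.18 and 1.52 TPM in DMSO limbs, and overlapped (limma adjusted p = 0.813). In DMSO 1 and DMSO 3 the values of i1 and i2 were identical, an equal split between both transcripts, so that the division of sdc3 among its transcripts is less sure than its sum.

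Set side by side as TPM, which is corrected for length, the family was made up mostly of sdc1 and sdc2. Together they took 88.4, 92.3 and 92.9% of the family total in iMDK limbs, against 95.1, 94.01 and 93.99% in DMSO limbs. The rank of the levels was sdc1, sdc2, sdc4, sdc3 in all 3 iMDK limbs, and the range of sdc1 (97.7 to 116.9 TPM) did not meet that of sdc2 (67.7 to 87.9 TPM), nor that of sdc4 (9.97 to 19.7 TPM) that of sdc3 (4.14 to 5.23 TPM). In all 3 DMSO limbs sdc2 was first and sdc1 second, but their ranges overlapped (74.2 to 96.6 and 68.9 to 88.5 TPM). Sdc3 and sdc4 overlapped in DMSO limbs as well, with sdc3 the higher one in DMSO 1 and DMSO 2 and sdc4 in DMSO 3.

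The ratio of sdc1 to sdc2 was thus above 1 in every iMDK limb (1.21, 1.11 and 1.73), against below 1 in every DMSO limb (0.713, 0.979 and 0.961). This does not depend on scaling between libraries, but the ratio was chosen after its values were seen and DMSO 2, DMSO 3 and iMDK 2 lay close to 1. The ratio of sdc4 to sdc3 was 4.76, 1.95 and 2.36 in iMDK limbs, against 0.996, 0.427 and 1.35 in DMSO limbs, without overlap, and rests on the sdc4 gene without the rest of its component.

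Of the family total, sdc1 took 48.4, 48.6 and 58.8% in iMDK limbs, against 39.5, 46.5 and 46.1% in DMSO limbs, a difference of 7.89 percentage points. Sdc2 took 40.0, 43.7 and 34.1% in iMDK limbs, against 55.5, 47.5 and 47.9% in DMSO limbs, a difference of -11.0 points. Sdc4 took 9.55, 5.07 and 5.02% in iMDK limbs, against 2.47, 1.79 and 3.45% in DMSO limbs, a difference of 3.98 points. For each of these 3 shares the limbs of both treatments did not overlap, with an exact permutation p of 0.1, the smallest that this design allows, so that none could reach 0.05. Sdc3 took 2.24 ± 0.317% in iMDK limbs and 3.08 ± 0.972% in DMSO limbs (SD, n = 3 per group, exact permutation p = 0.3), and overlapped. The 4 shares sum to 100 in each limb and are not independent of each other. With component sums, the difference of the sdc4 share shrank to 0.450 points (7.30 ± 2.72% in iMDK limbs and 6.85 ± 2.48% in DMSO limbs, exact permutation p = 0.9), while those of sdc1 and sdc2 were 9.73 and -8.66 points. The sdc3 share was then lower in every iMDK limb, by -1.52 points (3.01 ± 0.261% in iMDK limbs and 4.53 ± 0.721% in DMSO limbs, exact permutation p = 0.1).

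**Figure D4:**
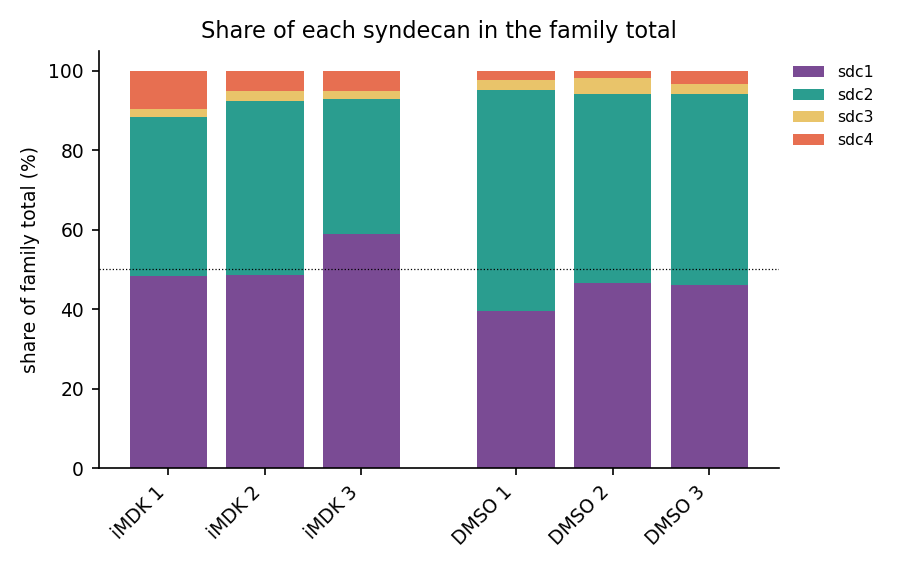
Share of each syndecan in the family total of each limb, in percent, stacked with sdc1 at the base, then sdc2, sdc3 and sdc4, and a dotted line at 50%. The sdc1 part is larger in each iMDK limb (48.4 to 58.8%) than in any DMSO limb (39.5 to 46.5%), and sdc1 and sdc2 together fill 88.4 to 95.1% of every bar.

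The family total was 206.5, 200.9 and 198.9 TPM in iMDK limbs, against 174.1, 190.2 and 154.9 TPM in DMSO limbs. As deposited it was higher in every iMDK limb, at 1.17 times the DMSO mean. With the TMM scaling undone it overlapped, at 187.1, 203.3 and 197.5 TPM in iMDK limbs, against 171.4, 208.9 and 157.4 TPM in DMSO limbs, and DMSO 2 was the highest limb of all. With median-of-ratios scaling it did not overlap, at 194.9 to 201.2 TPM in iMDK limbs and 150.4 to 178.5 TPM in DMSO limbs. As deposited, the means of sdc1 and sdc4 were higher in iMDK limbs and those of sdc2 and sdc3 lower, with the widest gap in TPM for sdc1.

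Markers of the cell types in the limb were set beside these values. The 17 epidermis markers, keratins and transglutaminases among them, summed to 14069, 12551 and 14450 TPM in iMDK limbs, against 8832, 9392 and 13480 TPM in DMSO limbs, and 13 of 17 had a log2 difference above 0. The sums overlapped, with DMSO 3 above iMDK 2. A single keratin gene, K2C5_RAT, made up most of each sum (7219 to 8348 TPM in iMDK limbs, 4794 to 7362 TPM in DMSO limbs). Per 1000 TPM of these markers sdc1 was at 7.10, 7.78 and 8.09 in iMDK limbs, against 7.80, 9.42 and 5.29 in DMSO limbs, and the groups overlapped (exact permutation p = 0.9). Sdc4 measured the same way was at 1.40, 0.812 and 0.690 in iMDK limbs, against 0.487, 0.363 and 0.397 in DMSO limbs, and did not overlap (exact permutation p = 0.1). This rests on the sdc4 gene without the rest of its component, whose sum overlapped between treatments and for which no such ratio was formed. Such ratios were formed for the epidermis and endothelium lists only and were not among the planned comparisons. The paper found sdc1 in blastemal cells as well as in the wound epidermis, and no ratio to connective tissue markers was formed. From published single-cell data it also describes syndecans and integrins as high in blastemal cells, wound epidermis, endothelium and Schwann cells.

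Each of the 3 endothelium markers overlapped between treatments, while their sum did not, at 90.6 to 106.5 TPM in iMDK limbs and 60.7 to 88.5 TPM in DMSO limbs. CAV1 alone made up most of the sum in each limb (57.6 to 85.5 TPM in iMDK limbs, 46.3 to 69.3 TPM in DMSO limbs). With the TMM scaling undone the sum overlapped too, but not with median-of-ratios scaling (88.3 to 106.5 TPM in iMDK limbs, 59.0 to 83.1 TPM in DMSO limbs). Per 1000 TPM of endothelium markers sdc1 overlapped (exact permutation p = 1.0), at 917 to 1103 in iMDK limbs and 987 to 1175 in DMSO limbs. Sdc4 on that scale did not overlap, at 93.8 to 217.7 in iMDK limbs and 38.5 to 88.1 in DMSO limbs, again for the sdc4 gene without the rest of its component. The 5 erythrocyte markers summed to 43.4 to 81.6 TPM in iMDK limbs and 7.52 to 15.3 TPM in DMSO limbs, and 2 of them, beta globins, were called, against 0.0541% of all genes. Of the 5, 4 had a log2 difference above 0. The alpha globin HBA2_TRICR had a log2 difference of -0.12, and HEM0 overlapped between treatments (limma adjusted p = 0.817). None of the 5 was called with the replicate block, with the TMM scaling undone, with a pseudocount of 0.1 or without any 1 of the 6 libraries.

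The sums of the 7 connective tissue markers (1605 to 1723 TPM in iMDK limbs, 912 to 2003 TPM in DMSO limbs), the 5 macrophage markers (569 to 2384 and 375 to 2058 TPM) and the 2 muscle markers (2.31 to 5.31 and 1.12 to 2.64 TPM) overlapped. No marker of any list was at 0 in any limb. What part the mix of cells has in the levels of sdc1 and sdc4 was not tested.

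Genes that make, bind and cut syndecans were read from a list of 25 by role, of which 24 were tested. Names came from the study's skin flap tables, which hold only transcripts that differed between skin flap and normally regenerating limbs. The list thus leaves out genes not named there and is not a random draw from all genes. None was called, and 3 had an unadjusted limma p under 0.05 (ACTN4, CHSS3 and MMP2_CHICK), all higher in iMDK (5.78% of all genes). All 3 missed that threshold with the TMM scaling undone and with quantile normalization. Without each library in turn the number of members higher in iMDK at that threshold ranged between 0 and 5. The 5, without DMSO 2, included 3 assembled fibronectin genes. The share of all genes under these alternatives is not given here, so the counts have no background beside them. As deposited, 15 of 24 had a log2 difference above 0, with a median of 0.19 against -0.01 over all genes (49.3% above 0). The ligands were 5 of 5 above 0, none of them past the test, and include 3 assembled fibronectin genes of a single component. Midkine (MKA_XENLA), the ligand that gave iMDK its name, was at 96.0, 123.8 and 119.3 TPM in iMDK limbs, against 56.3, 174.8 and 56.3 TPM in DMSO limbs. DMSO 2 was the highest limb of all and the other DMSO limbs the lowest, so that the log2 difference of 0.45 was within the spread (95% interval -0.61 to 1.5, limma adjusted p = 0.830). It was 0.99 without DMSO 2 (limma unadjusted p = 0.0015, adjusted p = 0.265), and 0.18 without DMSO 1 or without DMSO 3.

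Among cytoplasmic partners, ACTN4 (alpha-actinin 4, which crosslinks actin; alpha-actinin binds the sdc4 tail in mammals) was at 184.4, 172.6 and 195.4 TPM in iMDK limbs, against 129.5, 129.2 and 163.3 TPM in DMSO limbs. The groups did not overlap, with a log2 difference of 0.39 (limma unadjusted p = 0.0426, adjusted p = 0.444). SDCB1 (syntenin, the scaffold that binds the tail of all syndecans) had the lowest difference of the list. It was at 75.5, 53.6 and 45.2 TPM in iMDK limbs, against 91.5, 69.8 and 60.3 TPM in DMSO limbs, a log2 difference of -0.35 with overlap (limma adjusted p = 0.730). Of the alternatives, SDCB1 passed the unadjusted threshold only with the replicate block. CSKP (CASK, another scaffold of the tail) differed least of all, at 7.60 to 8.38 TPM in iMDK limbs and 6.58 to 8.84 TPM in DMSO limbs. SRC, a kinase, had a log2 difference of 0.21 (limma adjusted p = 0.835).

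Of the enzymes that make or modify the sugar chains, CHSS3 (chondroitin sulfate synthase 3) was at 5.66, 5.78 and 4.29 TPM in iMDK limbs, against 4.20, 2.37 and 2.44 TPM in DMSO limbs. It did not overlap, although iMDK 3 and DMSO 1 were close, and its log2 difference of 0.74 did not pass (limma unadjusted p = 0.0419, adjusted p = 0.440). The chondroitin sulfotransferase CHSTB was also higher in every iMDK limb (1.18 to 2.25 TPM) than in the DMSO limbs (0.574 to 1.16 TPM), at 0.61 on the log2 scale (limma adjusted p = 0.718), but it overlapped with the TMM scaling undone and with median-of-ratios scaling. The dermatan sulfate epimerase DSEL was at -0.27. UXS1, which makes the UDP-xylose that starts the linker of heparan and chondroitin sulfate alike, was at -0.24 on the log2 scale, and of the alternatives it passed the unadjusted threshold only with the TMM scaling undone. NDST1, which sulfates growing heparan sulfate, was at 0.37, SULF1, an extracellular enzyme that takes sulfate off finished chains, at -0.16, and the heparan sulfotransferase HS3S1 was under 1 TPM in every limb and not tested.

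Of the sheddases, the metalloproteinases known to cut syndecans from the cell in mammals, the gene with best hit MMP2_CHICK had the largest difference of the list. It was at 813.7, 1178 and 670.3 TPM in iMDK limbs, against 404.4, 710.1 and 414.9 TPM in DMSO limbs. DMSO 2 lay above iMDK 3, and the log2 difference of 0.81 did not pass (limma unadjusted p = 0.0394, adjusted p = 0.432). The other gene with an MMP2 hit (MMP2_HUMAN) was at -0.15 and MMP14 at 0.16 on the log2 scale. The co-receptors FGFR1, FGFR3 and integrin alpha V (ITAV) were at -0.29, -0.02 and 0.13, and the other heparan sulfate proteoglycans GPC1, GPC6 and perlecan (PGBM) at 0.35, -0.06 and 0.35.

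**Figure D5:**
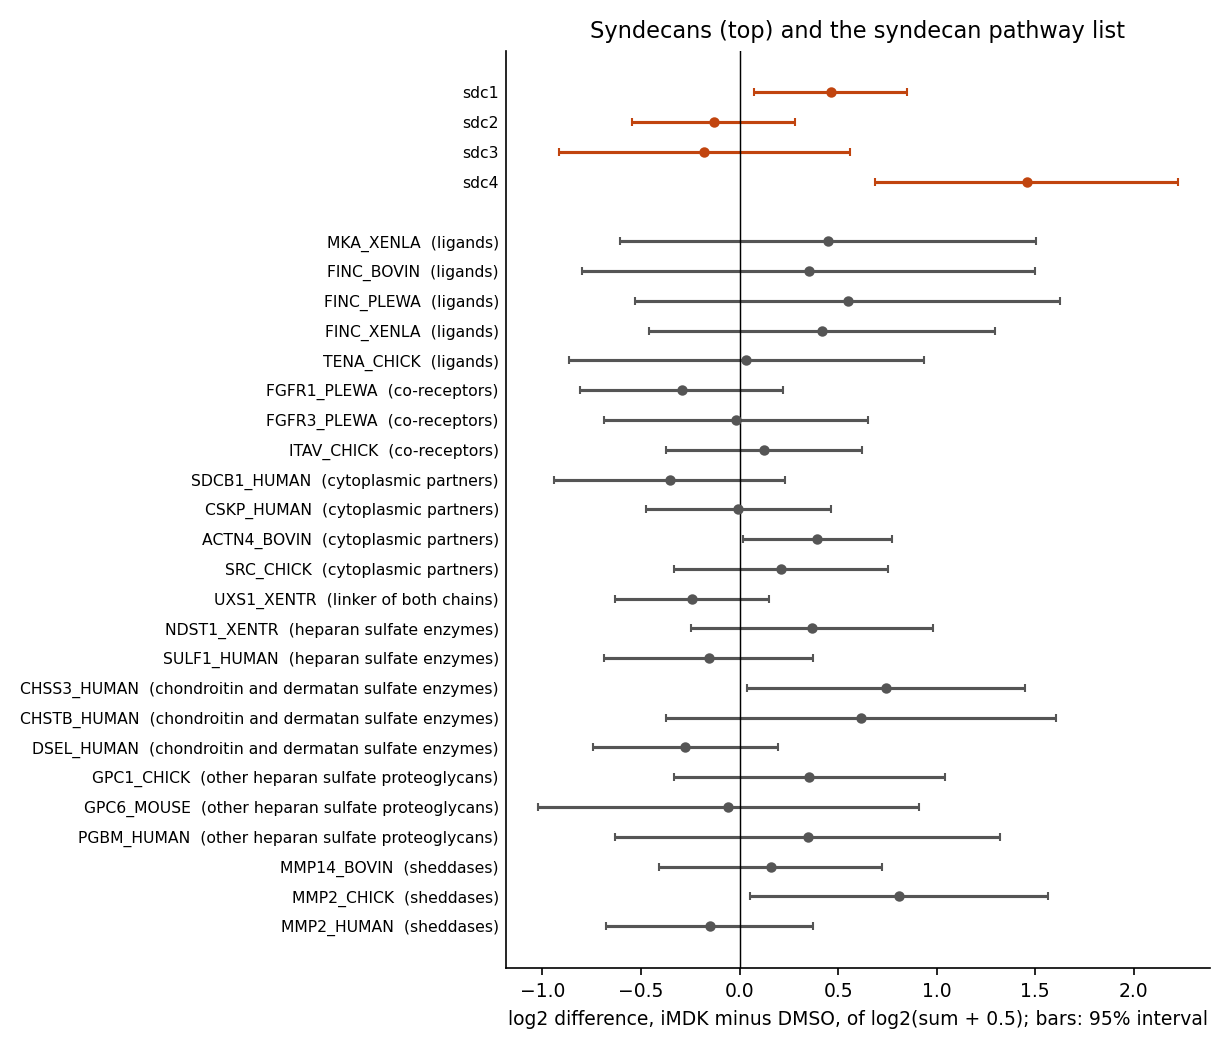
Log2 difference between iMDK and DMSO limbs (iMDK minus DMSO, of log2(sum + 0.5)) for the 4 syndecans at the top and, below them, the 24 tested genes of the pathway list by role; points are limma estimates and bars their 95% intervals, without adjustment for the number of genes. The bars of sdc1 (0.08 to 0.85) and sdc4 (0.69 to 2.22) lie above 0, as do those of ACTN4, CHSS3 and MMP2_CHICK, and no whole bar lies below 0. Of those above 0 only that of sdc4 stays so with the TMM scaling undone. With its component sum, sdc4 has an interval that crosses 0 (-0.55 to 1.06).

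The nearest profiles over the 6 limbs were sought among 1182 assembled genes with a name, as the root mean square difference of centred log2 values. Nearest to sdc1 were ANO6 (0.07), TLR13 (0.08) and M4K4 (0.09), and 21 of all 44342 genes were at least as near as the third of them. Nearest to sdc2 were GPC6 (0.07), a glypican, ADDA (0.07) and RGS3 (0.09), with 48 genes at least as near as RGS3. Sdc3, with its high value in DMSO 2, was nearest to ANR50 (0.10), UBP2L (0.11) and NFH (0.12), with 44 genes at least as near as NFH. Sdc4 had no named gene as near, since TRAF2 and S100P lay at 0.32 and JMY at 0.36, with 166 genes at least as near as JMY. GPC6 varied little between limbs (0.782 to 1.09 TPM in iMDK limbs and 0.800 to 1.09 TPM in DMSO limbs), as did sdc2, and even profiles lie near each other on this measure. S100P, which binds calcium, was at 7901, 4198 and 6462 TPM in iMDK limbs, against 2109, 1444 and 3751 TPM in DMSO limbs, without overlap, as for sdc4. These are descriptions over 6 limbs that share their libraries, with no test.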

How the data were processed

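Poly(A) RNA of 3 iMDK and 3 DMSO limbs was sequenced on Nextera XT libraries. The authors trimmed reads with Trimmomatic, quantified them with kallisto against a Trinity axolotl assembly and ran DESeq2 for tests of their own, and their versions were not given in the sources used here. Deposited was a signal, the TPM of each assembled transcript scaled by the authors with a TMM factor per library. It is not counts, so no count test was run. Groups came from the labels.

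Transcripts, and their sums per assembled gene, with at least 1 TPM in at least 3 of 6 libraries (51718 and 44342) were log2 transformed after adding 0.5 and tested, 2-sided, in R 4.3.3 by limma 3.58.1 with empirical Bayes and trend (input by data.table, version 1.17.8). Fold changes understate those of low genes. Benjamini-Hochberg adjustment ran over all of them. Shares were compared by exact permutation over libraries with scipy 1.17.1 and pandas 2.3.3 in Python 3.11.15, and plotted with matplotlib 3.10.9. The limma fit over genes was also run on simulated data, with an outcome not given here. The fit over transcripts and the comparisons of shares were not simulated. Alternatives were pseudocounts, filters, scalings, variance models, a replicate block, leaving out each library, tested transcripts only and, added later, component sums.

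The matrix holds assembly identifiers only. Syndecan names are those of the study's receptor table, other names the blastx entry names that the study pairs with transcripts in its skin flap tables, where the species part is the best hit. Those tables hold only transcripts that differed between skin flap and normally regenerating limbs. Transcripts with near-identical copies are uncertain. Named were all syndecan transcripts and sums, midkine, list members with an unadjusted p under 0.05 or the largest or smallest difference, and the 3 named genes nearest each syndecan. The remaining list members and c1069904_g2 were named after their values were seen. Members and lists were chosen with earlier results of these data known. No sequence or coordinate of a syndecan was used here.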

Additional observations from a re-analysis of the deposited data

How the results depend on the processing

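None of the 4 syndecan genes and no pathway member was called under any alternative tried. Over all alternatives the limma adjusted p ran between 0.305 and 0.692 for sdc1 and between 0.142 and 0.855 for sdc4. Without each library in turn the log2 difference was 0.38 to 0.57 for sdc1, -0.24 to -0.02 for sdc2, -0.35 to 0.11 for sdc3 and 1.14 to 1.62 for sdc4. The sign of sdc3 turned only without DMSO 2 (0.11). The number of syndecan transcripts called ranged between 0 and 1, the 1 being sdc2 i1 (log2 difference 6.99) without DMSO 3, the only DMSO limb that used i1. The share differences ranged between 4.46 (without iMDK 3) and 9.66 points for sdc1, between -13.3 and -8.43 for sdc2, between -1.13 and -0.273 for sdc3 and between 2.47 (without iMDK 1) and 4.74 for sdc4, and that of i1 within sdc2 between 49.8 and 99.8.

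With tested transcripts only, the share differences were -23.1 points for sdc1, 23.0 for sdc2 and -2.30 for sdc3, and 0.0 for i1 within sdc2, since that setting drops sdc2 i2 and with it the sdc2 level of DMSO 1 and DMSO 2. With component sums the sdc4 share difference was 0.450 points. With a filter of at least 5 TPM, sdc3 was left out. Whether the replicate numbers pair the limbs could not be settled. Correlations of deviations were low, at 0.071, 0.058 and 0.0046 for numbers 1, 2 and 3. By these, iMDK 1 was nearest to DMSO 1 and iMDK 2 to DMSO 2, while iMDK 3 was also nearest to DMSO 2 (0.057). With the replicate number as a block the adjusted p was 0.394 for sdc1, 0.744 for sdc2, 0.816 for sdc3 and 0.344 for sdc4.

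The number of all genes called was 24, against 9 with a pseudocount of 0.1, 438 with no filter, 14 with the TMM scaling undone, 38 with at least 5 TPM, 820 with no trend, 0 with the replicate block and 0 to 3 without each library. For transcripts it was 280, against 427 with no filter, 168 with at least 5 TPM, 1303 with no trend, 30 with the replicate block and 78 to 138 without each library. The cause was not tested. With 3 limbs per treatment and no read totals, differences of the size seen in the syndecans did not pass after adjustment over all genes, which does not show that they are absent.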
